A study of Mus musculus with 2 samples.

Results

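The C-type lectin Clec and Cd209 family was taken as every gene whose symbol starts with Clec or Cd209, which gave 37 members among 31053 genes. Its transcripts were counted by single-cell RNA sequencing in 2 libraries of mouse lung, 1 from tamoxifen-injected and 1 from oil-injected adult animals, both labelled Gli1creERT/Hhipflo/flox. This genotype places a tamoxifen-dependent Cre recombinase under Gli1, a gene of Hedgehog-responsive mesenchymal cells, and carries loxP-flanked alleles of Hhip, an inhibitor of Hedgehog ligands. The oil-injected animals thus share both alleles and lack the inducer. Live cells positive for CD45, a pan-leukocyte antigen, were sorted if an antibody injected into the blood before death had not reached them, which selects immune cells outside the vessels. The Cre is driven by a gene that does not mark leukocytes, and how many animals gave cells, and of what sex or exact age, is not stated in the labels. Each group is a single library, so no difference below has a replicate check or a test.

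C-type lectin receptors bind carbohydrates, lipids or proteins through a shared fold and are best known as pattern receptors of macrophages and dendritic cells. Activating members such as those of the Dectin-2 cluster couple to the Fc receptor gamma chain and signal through Syk and Card9, whereas DCIR-type members carry an inhibitory motif that recruits phosphatases such as the product of Ptpn6. In lung, members of the family take part in the recognition of fungi, mycobacteria, dead cells and house dust mite, and some, such as Clec9a on type 1 conventional dendritic cells and Clec1b on platelets, are used as markers of 1 lineage.

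The tamoxifen library kept 10138 of 12980 barcodes and the oil library 6794 of 10342, with medians of 6431 and 6360.5 UMIs (unique molecular identifiers, each standing for 1 captured 3′ transcript end). The libraries had 41 barcode sequences in common, 18 of them kept in both. Hhip, the targeted gene, had 29 UMIs in 13 tamoxifen barcodes and 40 UMIs in 24 oil barcodes, too few in these sorted leukocytes to check the deletion. Barcodes were assigned to 10 gates by the UMIs of a few genes, and a barcode could pass several. An alveolar macrophage gate (Krt79 and Plet1) held 2507 tamoxifen and 476 oil barcodes, a C1q gate (C1qa and C1qb) 1262 and 1221, and a Folr2 gate (Folr2, Cd163 and Stab1) 234 and 285. Of the others, 524 tamoxifen and 137 oil barcodes passed a Ly6i/Gpnmb gate (Ly6i, Chil1 and Gpnmb), 698 and 529 an Xcr1 gate, 1653 and 2030 an Mgl2 gate, and 189 and 169 a Ccr7/Fscn1 gate. The neutrophil gate (Csf3r and Retnlg) held 315 and 99, the B cell gate (Cd79a) 415 and 233, and the platelet gate (Ppbp and Gp9) 102 and 48.

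Some gates were mixtures. Mgl2, proposed as a mark of type 2 conventional dendritic cells, was found in 69.7% of tamoxifen and 86.7% of oil barcodes of the C1q gate, and 53.2% and 52.2% of the Mgl2 gate passed the C1q gate. That gate is therefore called by its gene. The neutrophil gate was not the same population in both libraries, since the summed level of 6 neutrophil markers in it was 43821 CPM with tamoxifen and 4539 CPM with oil (CPM, UMIs per 1000000 UMIs of the gate). The oil Ly6i/Gpnmb gate held 16 Ly6i UMIs and 15 Chil1 UMIs against 1277 of Gpnmb, while the tamoxifen gate held 1438, 1284 and 2818. Within 8 gates other than the alveolar macrophage and Ly6i/Gpnmb gates, the summed alveolar macrophage markers were 2.44 to 25.2 times higher per barcode with tamoxifen, and all 10 of these markers were found in each of the 8 tamoxifen gates. For this reason most ratios of members past 2-fold are followed by the value over barcodes that passed no gate of another lineage, Mgl2 being allowed except in the alveolar macrophage gate. The C1q, Folr2 and Ly6i/Gpnmb gates counted as 1 lineage, so their barcodes were not removed from each other. Of C1q gate barcodes, 10.1% with tamoxifen and 0.983% with oil passed the Ly6i/Gpnmb gate. Their part in the C1q ratios was not tested. T cell barcodes were left out, but endothelial, fibroblast, plasmacytoid and natural killer barcodes were not. Without other lineages the alveolar macrophage markers of the Xcr1 gate stood at 64.3 CPM with tamoxifen and 52.1 CPM with oil, against 693 and 151 CPM in the whole gate. They remained unequal in others, at 184 and 81.6 CPM in the C1q gate, 83.8 and 23.1 CPM in the Ccr7/Fscn1 gate, 89.6 and 23.5 CPM in the B cell gate and 699 and 162 CPM in the neutrophil gate. The Ly6i/Gpnmb gate kept 973 and 5670 CPM of alveolar macrophage markers and 4292 and 49.4 CPM of neutrophil markers, so leaving out other lineages did not make its libraries alike. Cells of both sexes were found in both libraries, so ratios are also given within each sex. Sex-linked transcripts called 6156 of 10138 kept tamoxifen barcodes female (60.7%) and 1679 male. Of 6794 kept oil barcodes they called 3714 female (54.7%) and 1413 male. The remaining barcodes had no sex call and are left out of ratios within a sex.

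Family members held 70894 of the kept UMIs with tamoxifen (888 CPM) and 39311 with oil (740 CPM). A member was taken as measured in a gate with at least 30 UMIs over both libraries, which 28 of 37 members reached in at least 1 gate and 5 in all 10. The other 9 had at most 60 UMIs over all kept barcodes, and 2 of them, Clec3a and Clec18a, had 0 UMIs in both libraries. Of 28 measured members, 25 had the same leading gate, that of their highest CPM, in both libraries, and a member is said to lead in the gate of its highest mean CPM. Over the 177 measured pairs of a member and a gate, 39 (22.0%) were at least 2-fold higher with tamoxifen and 20 (11.3%) at least 2-fold lower. Over all genes at the same minimum of 30 UMIs, 4.29% of pairs were as much higher and 2.06% as much lower. Those genes were not matched to the members in level. The gates overlap, so these pairs share barcodes. When barcodes of other lineages were left out, 19 of the 39 higher pairs still had 30 UMIs, of which 13 stayed at least 2-fold higher, 4 were higher by less, and 2 were lower. Of the 20 lower pairs, 9 were still measured and all 9 stayed lower, 4 of them by at least 2-fold. Log2 ratios below are of tamoxifen over oil, and their 95% intervals cover counting error only. They are too narrow where the UMIs of a gene lie in a few barcodes. Ratios were scaled by gate totals. The median log2 ratio of all genes with at least 30 UMIs was 0.12 in the alveolar macrophage gate and 0.11 in the Folr2 gate. It was 0.16 in the B cell gate and 0.19 in the platelet gate, and nearer 0 in the other gates.

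**Figure D1:**
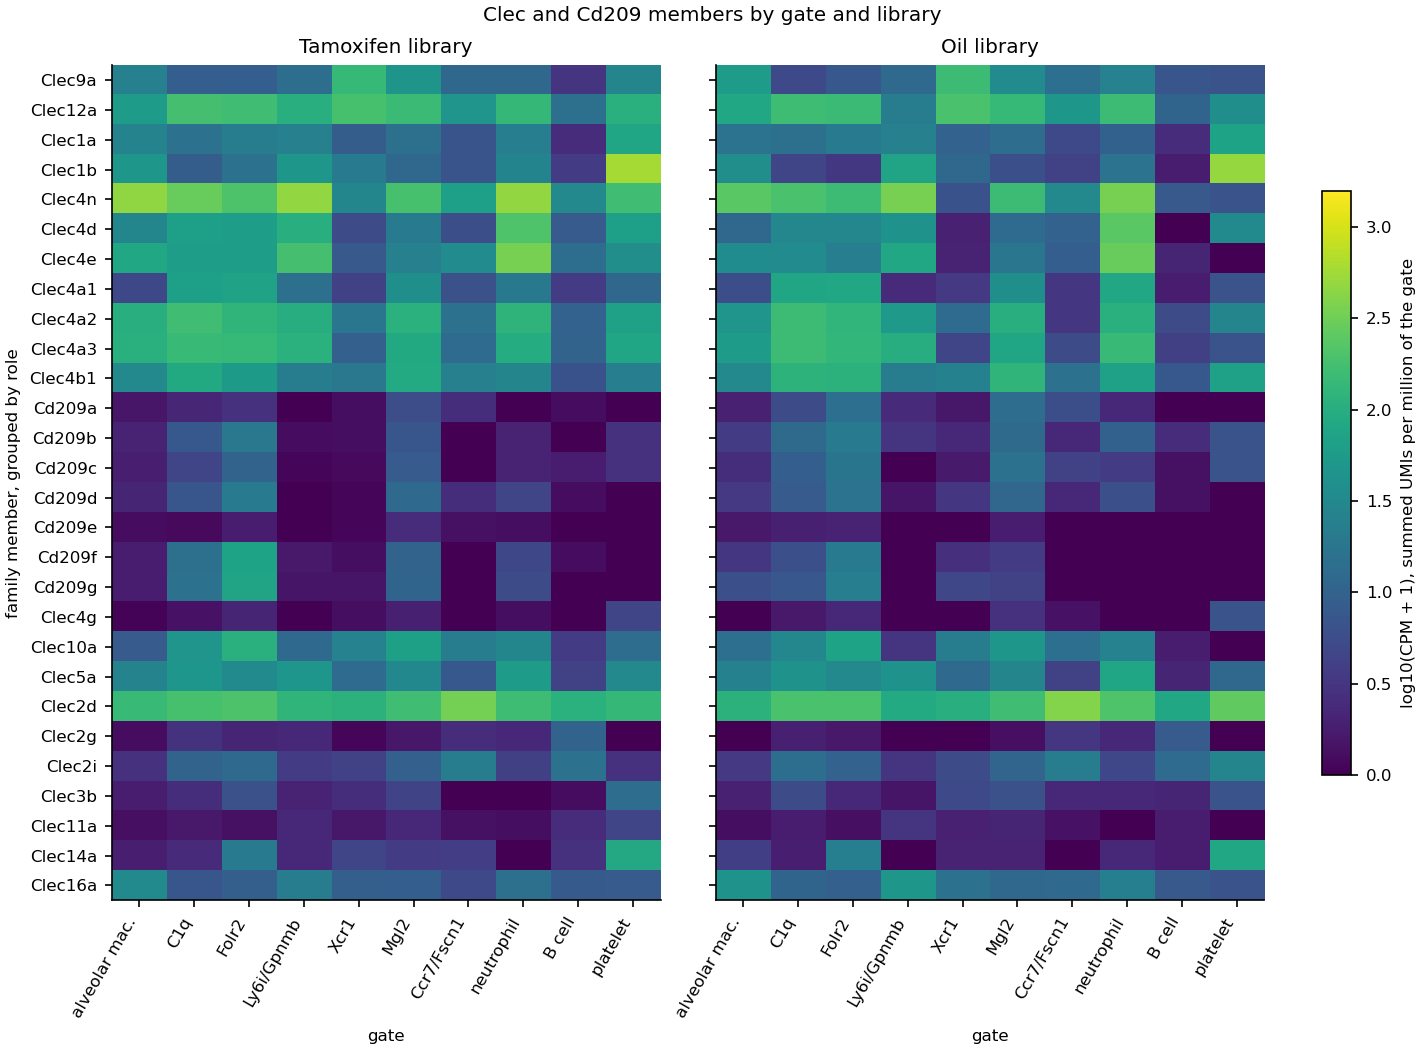
Colour shows log10(CPM + 1) of each of the 28 measured members (rows, grouped by role) in the 10 gates (columns), with the tamoxifen library on the left and the oil library on the right. The leading gate of 25 members is the same in both panels, such as the Xcr1 gate for Clec9a, the platelet gate for Clec1b and the Folr2 gate for Cd209f and Cd209g.

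By gate, the share of members at least 2-fold higher was 5 of 25 in the C1q gate (2.8% of all genes in that gate), 5 of 23 in the Folr2 gate (3.69%), 3 of 22 in the alveolar macrophage gate (3.31%) and 4 of 27 in the Mgl2 gate (2.09%). In the Ly6i/Gpnmb gate it was 5 of 15 (5.48%), in the Xcr1 gate 5 of 19 (2.69%), and in the Ccr7/Fscn1 gate 4 of 12 (4.48%). The neutrophil gate had 1 of 15 (7.73%), the B cell gate 3 of 10 (4.56%) and the platelet gate 4 of 9 (14.6%). At least 2-fold lower were 6 members in the alveolar macrophage gate (4.89% of all genes there), 3 in the C1q gate (1.44%), 3 in the neutrophil gate (3.54%) and 2 each in the Folr2 (1.38%), Xcr1 (0.954%) and Mgl2 (1.06%) gates. The Ly6i/Gpnmb gate had 1 (2.42%), the Ccr7/Fscn1 gate 1 (1.32%), and the B cell (1.22%) and platelet (2.44%) gates 0. The median log2 ratio of the members was -0.32 in the alveolar macrophage gate, against 0.12 over all genes, and 0.087 against 0.074 in the C1q gate, 0.12 against 0.11 in the Folr2 gate and 0.13 against 0.052 in the Mgl2 gate. It was 0.47 against -0.075 in the Ly6i/Gpnmb gate, 0.096 against 0.030 in the Xcr1 gate, 0.30 against 0.092 in the Ccr7/Fscn1 gate, -0.22 against 0.086 in the neutrophil gate, 0.49 against 0.16 in the B cell gate and 0.93 against 0.19 in the platelet gate. Without other lineages the medians were 0.38 in the alveolar macrophage gate, where 3 of 14 measured members were 2-fold higher and 0 lower, -0.12 in the Mgl2 gate (1 of 22 higher and 0 lower) and -0.19 in the Xcr1 gate (0 of 13 higher and 3 lower). They were 0.095 in the C1q gate (4 of 23 higher, 3 lower), 0.25 in the Folr2 gate (4 of 20 higher, 1 lower) and 0.63 in the Ly6i/Gpnmb gate (5 of 14 higher, 3 lower). Shares over all genes are not given for these reduced barcodes, so whether these counts exceed such shares is unknown.

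Start-site sequences are shown for 6 members that the account below turns on, since Cd209f and Cd209g were higher with tamoxifen where Cd209a was lower, and Clec4d and Clec4e were both higher. Each covers 250 bases before to 50 after the RefSeq start on GRCm38.p6, and capitals mark matches on either strand to AP-1 (TGANTCA), C/EBP (TTGCNNAA), NF-kB (GGGA and CC with any 4 bases between) or ETS-IRF (GGAA and GAAA with any 2 bases between) motifs.
Cd209f (chr8:4105715-4106014, minus strand): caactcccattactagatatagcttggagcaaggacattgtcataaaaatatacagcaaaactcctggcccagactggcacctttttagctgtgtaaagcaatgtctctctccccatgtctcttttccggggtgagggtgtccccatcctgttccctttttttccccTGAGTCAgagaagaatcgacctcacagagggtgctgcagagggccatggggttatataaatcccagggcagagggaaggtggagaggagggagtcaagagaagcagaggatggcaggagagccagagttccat
Cd209g (chr8:4134486-4134785, plus strand): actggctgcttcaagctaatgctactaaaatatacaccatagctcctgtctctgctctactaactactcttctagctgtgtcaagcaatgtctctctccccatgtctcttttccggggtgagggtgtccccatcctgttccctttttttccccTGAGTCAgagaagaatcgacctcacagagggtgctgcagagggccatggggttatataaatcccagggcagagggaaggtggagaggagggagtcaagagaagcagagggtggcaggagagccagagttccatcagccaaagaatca
Cd209a (chr8:3748935-3749234, minus strand): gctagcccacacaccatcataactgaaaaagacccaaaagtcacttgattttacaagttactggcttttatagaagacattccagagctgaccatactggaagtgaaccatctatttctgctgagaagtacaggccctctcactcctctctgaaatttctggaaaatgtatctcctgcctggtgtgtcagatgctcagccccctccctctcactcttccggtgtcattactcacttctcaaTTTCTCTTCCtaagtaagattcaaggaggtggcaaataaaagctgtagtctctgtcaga
Cd209d (chr8:3878450-3878749, minus strand): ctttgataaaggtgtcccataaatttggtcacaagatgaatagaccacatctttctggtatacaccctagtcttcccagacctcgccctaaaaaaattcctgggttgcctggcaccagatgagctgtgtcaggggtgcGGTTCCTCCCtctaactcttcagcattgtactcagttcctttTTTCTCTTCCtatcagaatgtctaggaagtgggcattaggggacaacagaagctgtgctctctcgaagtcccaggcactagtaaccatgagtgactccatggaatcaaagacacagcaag
Clec4d (chr6:123261857-123262156, plus strand): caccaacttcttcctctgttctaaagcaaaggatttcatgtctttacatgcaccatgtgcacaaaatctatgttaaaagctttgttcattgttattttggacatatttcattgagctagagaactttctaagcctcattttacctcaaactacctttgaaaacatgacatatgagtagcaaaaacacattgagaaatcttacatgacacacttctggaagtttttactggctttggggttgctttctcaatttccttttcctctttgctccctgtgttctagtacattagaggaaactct
Clec4e (chr6:123289822-123290121, minus strand): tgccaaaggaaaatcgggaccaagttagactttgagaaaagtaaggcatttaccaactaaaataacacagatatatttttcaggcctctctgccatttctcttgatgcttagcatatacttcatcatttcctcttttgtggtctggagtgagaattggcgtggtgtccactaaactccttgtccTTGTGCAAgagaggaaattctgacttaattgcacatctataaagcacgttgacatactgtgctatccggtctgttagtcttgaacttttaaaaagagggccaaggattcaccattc

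Cd209f and Cd209g were 81.2% identical over the aligned window, the highest identity among the Cd209 and Clec4 members compared, and the next was 58.8% for Cd209b and Cd209d. Both hold 1 AP-1 match, a motif found in 7.81% of 32851 promoters of the same length and in 8 of the 31 members with a promoter entry. Cd209a, Cd209d and Cd209e hold an ETS-IRF match (2.72% of all promoters, 5 of 31 members), and Clec4e holds a C/EBP match (10.8%, 6 of 31). An NF-kB match lies in Cd209d (20.7%, 5 of 31), and none of the 31 holds GAGGAAGT, the PU.1 letters searched (3.2%). A match describes letters and not a bound site. The RefSeq start used for Cd209g lies 638 bases from the gene start in the annotation used for positions, and that for Cd209f 71 bases.

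The Dectin-2 cluster comprises Clec4n (Dectin-2, a receptor for fungal mannans), Clec4d (MCL) and Clec4e (Mincle), which bind mycobacterial glycolipids. The 3 genes lie side by side on GRCm38 chromosome 6, with Clec4n at 123229843 to 123247021, Clec4d at 123262111 to 123275265 and Clec4e, on the other strand, at 123281789 to 123289870. Together they accounted for 15 of the 39 pairs at least 2-fold higher with tamoxifen, out of 28 measured pairs, and for none of the lower ones. Over all genes, 4.29% of pairs were as much higher and 2.06% as much lower. The 28 pairs are 3 genes counted in overlapping gates that share barcodes. After other lineages were left out, 9 of the 15 were still measured, of which 5 stayed at least 2-fold higher, 2 were higher by less and 2 were lower.

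Clec4n had the most UMIs of any member in kept tamoxifen barcodes (18077). With 5340 UMIs in kept oil barcodes, it came after Clec2d (8677). In the alveolar macrophage gate Clec4n stood at 461 CPM with tamoxifen and 238 CPM with oil, a log2 ratio of 0.95 (0.87 to 1.03), just under 2-fold. Without other lineages the levels were 534 and 328 CPM (0.70). After each barcode was thinned to 1500 UMIs, 46.7% of tamoxifen (44.7 to 48.7) and 28.4% of oil barcodes (24.4 to 32.7) of the gate held a Clec4n UMI. Unthinned shares were 85.9% and 60.9%. In T cell barcodes that passed none of the 10 gates, where the gene should be silent, thinned shares were 1.15% and 0.251%, at median depths of 5138 and 5694 UMIs.

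Clec4d was at 28.1 CPM with tamoxifen and 10.7 CPM with oil in the alveolar macrophage gate (1.39, 1.03 to 1.78) and at 28.8 and 12.6 CPM without other lineages (1.20). Clec4e was at 82.8 and 34.7 CPM (1.25, 1.05 to 1.46), and at 88.3 and 49.7 CPM without other lineages (0.83). The 3 genes were thus higher with tamoxifen both in the whole gate and without other lineages.

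In the whole gate a difference of this size was present in female and not in male barcodes. In female barcodes of the alveolar macrophage gate (2002 tamoxifen and 289 oil) Clec4n was at 501 and 232 CPM (1.11, 1.01 to 1.21), Clec4d at 30.3 and 10.6 CPM (1.51) and Clec4e at 93.3 and 41.9 CPM (1.16). In male barcodes (212 and 111) Clec4n was at 248 CPM with tamoxifen and 266 CPM with oil (-0.10, -0.29 to 0.09), Clec4d at 8.73 and 8.35 CPM (0.06, -1.03 to 1.25) and Clec4e at 31.5 and 30.4 CPM (0.05, -0.51 to 0.64). Whether the sexes differ was not tested, since each sex is 1 sample per library. Of the whole gate, 61.9% of tamoxifen and 39.1% of oil barcodes passed no gate of another lineage. Values within a sex are not given without other lineages, and whether the mixture of cells differed by sex was not tested.

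In the C1q gate Clec4d was at 63.8 CPM with tamoxifen and 29.5 CPM with oil (1.12, 0.93 to 1.30), and at 66.0 and 27.1 CPM without other lineages (1.29). With barcodes of the Mgl2 gate also left out, 286 tamoxifen and 131 oil barcodes gave 0.80, under 2-fold. Clec4e there was at 58.9 and 34.0 CPM (0.79) and Clec4n at 282 and 187 CPM (0.59), both under 2-fold. The split by sex had the same form, with 1.33 for Clec4d, 1.23 for Clec4e and 0.70 for Clec4n in female and 0.29, 0.03 and -0.03 in male barcodes. In the Folr2 gate, named for a folate receptor of resident tissue macrophages, Clec4d was at 61.8 and 29.5 CPM (1.07) and Clec4e at 59.2 and 22.5 CPM (1.40). Without other lineages these ratios were 1.19 and 1.57. With barcodes of the Mgl2 gate also left out they were 0.90 for Clec4d, under 2-fold, and 1.97 for Clec4e (46 tamoxifen and 45 oil barcodes). In the Ly6i/Gpnmb gate Clec4d was at 104 and 41.3 CPM (1.34) and Clec4e at 178 and 81.2 CPM (1.14). Without other lineages Clec4d gave 1.77, and Clec4e gave 0.86 (325 and 33 UMIs), under 2-fold. Clec4n there reached 481 and 347 CPM (0.47). Clec4n was also among the most abundant members of the Folr2 gate, at 202 and 157 CPM (0.37), and of the Mgl2 gate, at 186 and 154 CPM (0.27, and -0.01 without other lineages), neither 2-fold apart.

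Neutrophil barcodes carried the highest levels of Clec4d and Clec4e in both libraries. Clec4e was at 349 CPM with tamoxifen and 289 CPM with oil (0.27), Clec4d at 206 and 240 CPM (-0.22) and Clec4n at 485 and 347 CPM (0.48), none of them 2-fold apart. With other lineages left out, 93 tamoxifen and 47 oil barcodes remained, and the levels were 1277 and 872 CPM for Clec4e, 784 and 722 CPM for Clec4d and 859 and 884 CPM for Clec4n.

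The larger ratios lay in gates where the cluster was scarce. In the Xcr1 gate Clec4n was at 28.3 CPM with tamoxifen and 5.42 CPM with oil (2.39), Clec4d at 4.55 and 0.964 CPM (2.24) and Clec4e at 6.88 and 1.08 CPM (2.67). Without other lineages Clec4n had 9 UMIs (1.69 CPM) with tamoxifen and 25 UMIs (4.65 CPM) with oil, the opposite direction (-1.46), Clec4d 4 and 4 UMIs and Clec4e 4 and 2. In the Ccr7/Fscn1 gate Clec4n was at 63.6 and 31.1 CPM (1.04) and Clec4e at 34.3 and 8.10 CPM (2.08), and without other lineages Clec4n had 27 and 39 UMIs (-0.34) and Clec4e 1 and 1. The B cell gate held 118 Clec4n UMIs with tamoxifen and 18 with oil (2.15), and 51 and 3 of Clec4e (3.53, 1.90 to 5.85). The platelet gate held 90 Clec4n UMIs in 18 tamoxifen barcodes and 1 in oil (4.92, 2.40 to 10.2). Without other lineages these counts were 15 and 7, 3 and 1, and 3 and 1. In these 4 gates the summed alveolar macrophage markers were also higher with tamoxifen, at 693 and 151 CPM in the Xcr1 gate, 514 and 89.1 CPM in the Ccr7/Fscn1 gate, 490 and 62.4 CPM in the B cell gate and 3274 and 182 CPM in the platelet gate, and their part in these ratios was not tested beyond leaving out those barcodes.

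**Figure D2:**
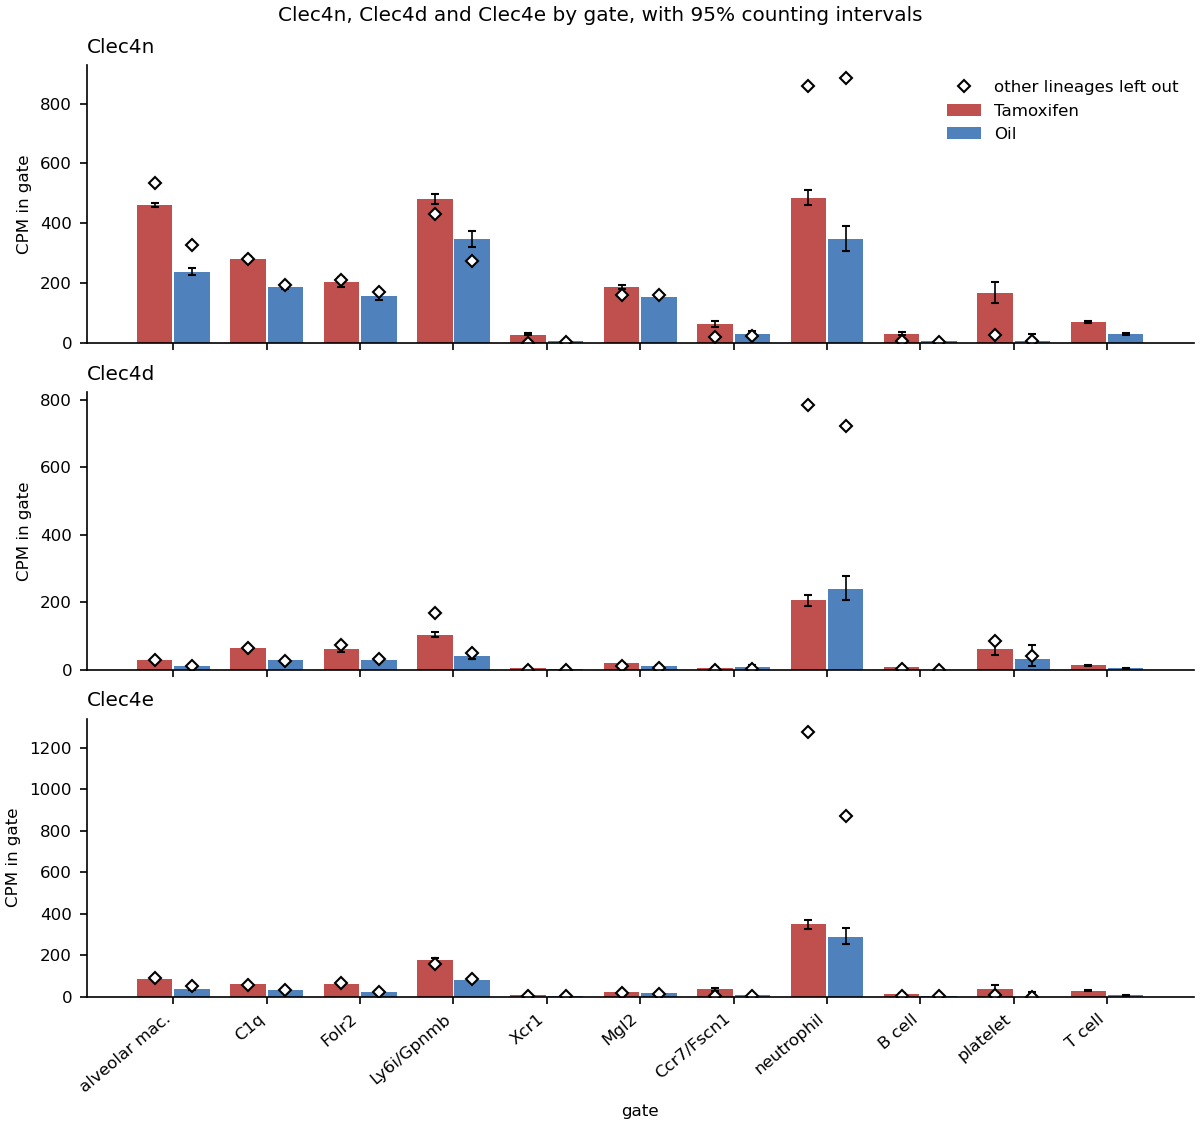
Bars show CPM of Clec4n, Clec4d and Clec4e in 10 gates and in T cells, tamoxifen (red) left of oil (blue), with exact 95% Poisson intervals that cover counting error, and diamonds show the 10 gates with other lineages left out. In the alveolar macrophage gate Clec4n stands at 461 CPM with tamoxifen and 238 CPM with oil, and the diamonds of the neutrophil gate lie far above its bars.

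The DC-SIGN group holds Cd209a to Cd209g, mouse relatives of the human receptor for mannose and fucose glycans, and Clec4g (LSECtin). Its 8 members were each measured in at least 1 gate, and 26 pairs gave 6 at least 2-fold higher and 10 at least 2-fold lower. Shares over all genes were 4.29% and 2.06%. The group split within the C1q, Folr2 and Mgl2 gates. The 6 higher pairs were Cd209f and Cd209g in these gates, whereas Cd209a was lower in all 3 and Cd209c in the C1q and Mgl2 gates. The other lower pairs were Cd209b, Cd209d, Cd209f and Cd209g in the alveolar macrophage gate and Cd209g in the Xcr1 gate.

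Cd209f (GRCm38 chromosome 8, 4102787 to 4105835, minus strand) had 188 UMIs with tamoxifen and 60 with oil in the Folr2 gate, or 71.3 and 20.1 CPM (1.83, 1.40 to 2.27). Cd209g (4134098 to 4137707, plus strand) had 194 and 66 UMIs, or 73.6 and 22.1 CPM (1.73, 1.32 to 2.16). With other lineages left out the levels were 97.5 and 14.4 CPM for Cd209f (2.75) and 88.5 and 10.5 CPM for Cd209g (3.07).

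These UMIs lay in very few cells. In the Folr2 gate 25 of 234 tamoxifen barcodes (10.7%) and 7 of 285 oil barcodes (2.46%) held a Cd209f UMI, and the 5 richest barcodes carried 47.9% and 96.7% of its UMIs. For Cd209g they were 23 and 7 barcodes, with 54.6% and 97.0% of UMIs in the 5 richest and up to 29 and 31 UMIs in 1 barcode. After thinning, 6.06% of tamoxifen (3.35 to 9.96) and 0.712% of oil barcodes (0.0863 to 2.55) held Cd209f, against 0.0295% and 0.0502% of T cell barcodes outside the gates. The Poisson intervals of the ratios therefore understate the error, and the interval of thinned shares, which counts barcodes, is the wider measure.

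The same cells appeared in several gates. Of all kept Cd209f UMIs, 94.5% in tamoxifen and 96.8% in oil lay in the Folr2 gate, and 89.4% and 96.8% lay in barcodes that passed the Folr2, C1q and Mgl2 gates at once, so its ratios of 1.47 in the C1q gate and 1.83 in the Mgl2 gate, and those of Cd209g there (1.17 and 1.56), largely restate 1 set of cells. Without other lineages Cd209f gave 2.14 and Cd209g 1.96 in the C1q gate, while the Mgl2 gate, whose C1q barcodes are then left out, held 0 Cd209f UMIs in both libraries and 1 and 0 of Cd209g. The 2 genes also shared cells, since 23 of 35 tamoxifen barcodes with Cd209f (65.7%) also held Cd209g, which was 79.3% of the 29 barcodes with Cd209g. In oil 5 of 9 did so (55.6% of each). Of the 60-base stretches in the last 500 bases of Cd209f transcripts, 34.7% also occur in Cd209g, so counts of Cd209f are uncertain. None of the stretches of Cd209g were shared.

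By sex the UMI ratios of the pair went opposite ways. Male barcodes of the Folr2 gate (67 with tamoxifen, 96 with oil) held 138 and 31 Cd209f UMIs, or 194 and 31.0 CPM (2.64), and 127 and 28 Cd209g UMIs (2.67). Female barcodes (124 and 133) held 11 and 21 Cd209f UMIs, or 7.23 and 13.7 CPM (-0.92, -2.12 to 0.19), and 14 and 38 Cd209g UMIs (-1.43, -2.43 to -0.52). The male UMIs of Cd209f came from 14 tamoxifen and 3 oil barcodes and the female ones from 4 and 2. For Cd209g they came from 14 and 5 male and 3 and 2 female barcodes. Female barcodes with either gene were thus no fewer with tamoxifen. The lower female ratios rest on the UMIs of 2 oil barcodes for each gene. The difference between sexes was not tested.

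**Figure D3:**
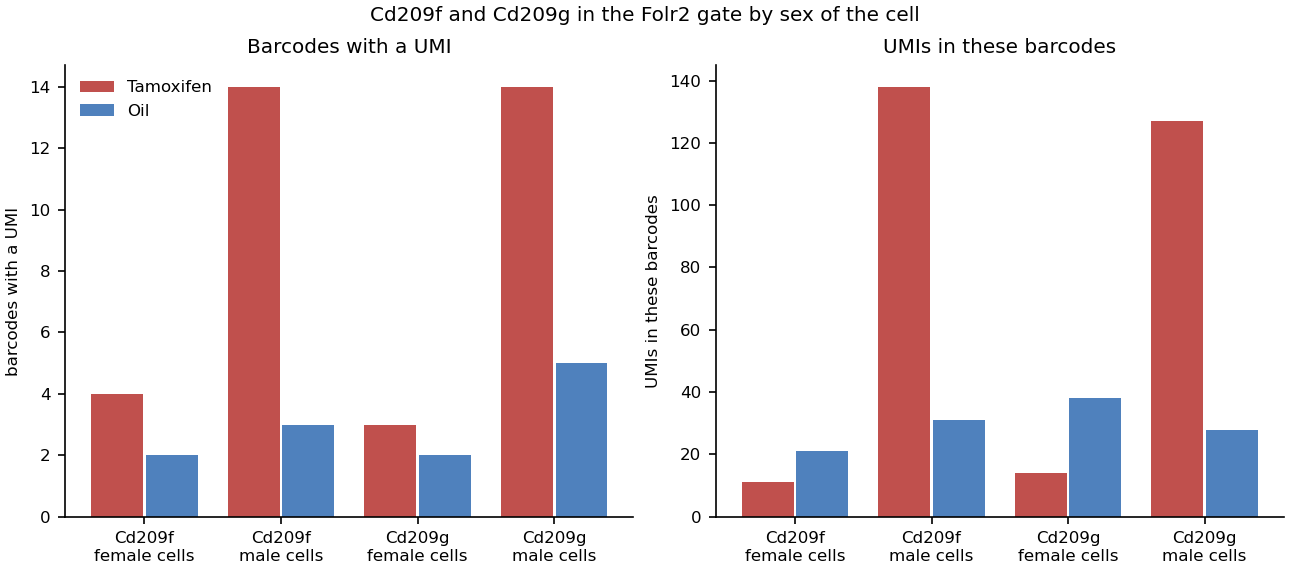
Bars count barcodes of the Folr2 gate with at least 1 UMI (left) and the UMIs in them (right) for Cd209f and Cd209g in female and male cells, tamoxifen (red) left of oil (blue). Male tamoxifen cells supply 138 Cd209f UMIs from 14 barcodes, whereas every other bar for this gene stands at 31 UMIs or fewer.

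Cd209a (GRCm38 chromosome 8, 3743397 to 3748984, minus strand), the member of the group found on monocyte-derived and type 2 dendritic cells of mice, was lower with tamoxifen. The Mgl2 gate held 91 UMIs in 60 tamoxifen barcodes and 305 UMIs in 184 oil barcodes, or 4.74 and 13.1 CPM (-1.47, -1.82 to -1.13). This gate contained 91.9% and 97.4% of all kept Cd209a UMIs, and its richest barcode there had 7 UMIs with tamoxifen and 6 with oil. Female and male barcodes gave -1.43 and -1.86. In barcodes of the Mgl2 gate that passed no other lineage gate the levels were 19.5 CPM with tamoxifen and 34.1 CPM with oil (-0.81), less than 2-fold apart. Smaller counts gave -1.88 in the C1q gate (16 and 52 UMIs) and -2.86 in the Folr2 gate (5 and 41 UMIs), or -1.64 and -2.55 without other lineages.

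Cd209c stood beside Cd209a. It was at 7.34 CPM with tamoxifen and 14.9 CPM with oil in the Mgl2 gate (-1.02), or 19.9 and 31.4 CPM without other lineages (-0.66), and its ratio was -1.14 in the C1q gate (-0.97 without other lineages) and -0.82 in the Folr2 gate. Of tamoxifen barcodes with Cd209a, 37.9% also held Cd209c, and of oil barcodes 43.9%. Cd209b was at 6.25 and 11.7 CPM in the Mgl2 gate (-0.90) and 18.2 and 20.1 CPM in the Folr2 gate (-0.14), neither 2-fold. Without other lineages Cd209b gave -0.61 and -0.93 there, and -1.21 in the C1q gate (46 and 110 UMIs). Cd209d was at 11.6 and 10.5 CPM (0.13) in the Mgl2 gate and 19.7 and 15.7 CPM (0.32) in the Folr2 gate, and 1 tamoxifen barcode carried 26 of its 222 UMIs in the Mgl2 gate. Without other lineages Cd209d in the Mgl2 gate was at 32.1 and 16.9 CPM (0.92, 87 and 100 UMIs), nearly 2-fold higher. Cd209e and Clec4g were measured in the Mgl2 gate alone, with 30 and 19 UMIs for Cd209e (0.93, and -1.27 in female and 4.56 in male barcodes, the last from 21 UMIs and 1) and 18 and 43 for Clec4g (-0.98).

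The other lower pairs of the group rest on few cells. In the alveolar macrophage gate Cd209f was at 0.729 CPM with tamoxifen and 2.24 CPM with oil (-1.62), Cd209g at 0.802 and 4.96 CPM (-2.63), Cd209b at 1.02 and 2.72 CPM (-1.41) and Cd209d at 1.13 and 2.40 CPM (-1.09). All 14 oil Cd209f UMIs and all 31 oil Cd209g UMIs there were in 1 barcode, and 31 Cd209g UMIs of 1 oil barcode made the ratio of -2.89 in the Xcr1 gate. Cd209d had 24 of its 31 tamoxifen UMIs in 1 barcode and its 15 oil UMIs in 3, and Cd209b was in 20 tamoxifen and 7 oil barcodes. Without other lineages the gate held 8 and 1 Cd209b UMIs, 3 and 0 each of Cd209f and Cd209g, and 0 of Cd209d in both libraries.

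**Figure D4:**
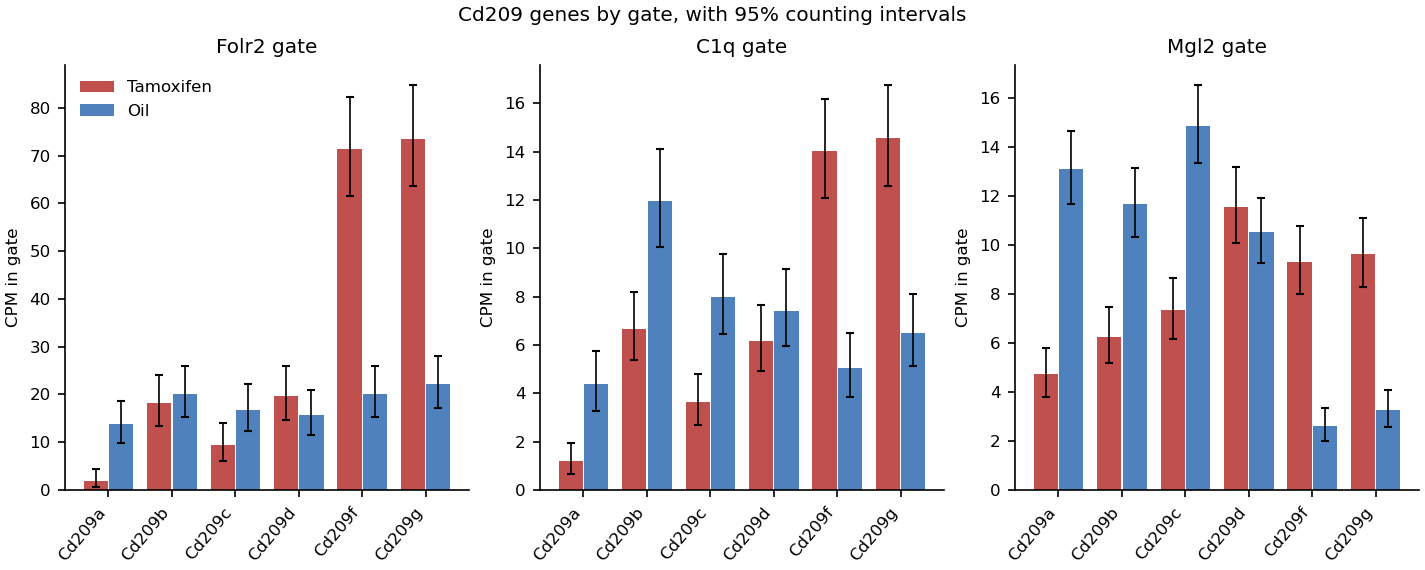
Bars show CPM of 6 Cd209 genes in the Folr2, C1q and Mgl2 gates, tamoxifen (red) left of oil (blue), with exact 95% Poisson intervals that cover counting error. Cd209f and Cd209g stand at 71.3 and 73.6 CPM with tamoxifen in the Folr2 gate, against 20.1 and 22.1 CPM with oil, and Cd209a stands at 4.74 CPM with tamoxifen and 13.1 CPM with oil in the Mgl2 gate.

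The DCIR and DCAR group holds inhibitory receptors such as Clec4a2 (DCIR) and the activating receptor Clec4b1 (DCAR). Of 36 measured pairs, 8 were at least 2-fold higher and 3 lower with tamoxifen, against 4.29% and 2.06% over all genes. Clec4a2 and Clec4a3 led in the C1q gate and did not differ there by 2-fold, at 163 and 157 CPM (0.05) and at 147 and 154 CPM (-0.07). In the alveolar macrophage gate Clec4a2 was at 101 CPM with tamoxifen and 45.9 CPM with oil (1.13, 0.96 to 1.31) and Clec4a3 at 107 and 58.3 CPM (0.87). Without other lineages the ratios were 0.88 and 0.37. Clec4a2 gave 1.36 in female and 0.27 in male barcodes of that gate, the same ordering as for the Dectin-2 cluster.

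Clec4b1 led in the Mgl2 gate, with 89.1 CPM in tamoxifen and 124 CPM in oil (-0.48, -0.57 to -0.39). In the Folr2 gate it was 2-fold lower, at 54.6 and 112 CPM (-1.04, -1.33 to -0.75), and at 69.8 and 124 CPM without other lineages (-0.83). Both sexes were lower, at -0.54 in female and -1.68 in male barcodes. Clec4a1 led in the Folr2 gate at 67.9 and 82.4 CPM (-0.28). Its largest ratio was in the Ly6i/Gpnmb gate, where 108 UMIs with tamoxifen stood against 3 with oil (3.24, 1.66 to 5.54), in a gate whose C1q markers were at 3032 and 1177 CPM. Without other lineages it had 56 UMIs and 1 UMI there. In the neutrophil gate Clec4a1 was at 18.6 and 79.3 CPM (-2.09) and Clec4b1 at 27.3 and 67.8 CPM (-1.31), while C1q macrophage markers there were at 4380 and 10101 CPM. Without other lineages they had 13 and 11 UMIs (Clec4a1, -0.69) and 3 and 16 UMIs (Clec4b1). The remaining higher pairs held few UMIs in 1 or both libraries. Clec4a3 had 86 and 30 UMIs in the Xcr1 gate (1.27), 30 and 10 in the Ccr7/Fscn1 gate (1.44), 36 and 8 in the B cell gate (1.61) and 40 and 1 in the platelet gate (3.75, 1.19 to 9.09). Clec4a2 had 37 and 5 in the Ccr7/Fscn1 gate (2.75) and 36 and 5 in the platelet gate (1.28). Without other lineages Clec4a3 had 6 and 4, 4 and 0, 8 and 4, and 8 and 1 UMIs in those 4 gates, and Clec4a2 had 8 and 3, and 2 and 5, all too few to count as measured.

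**Figure D5:**
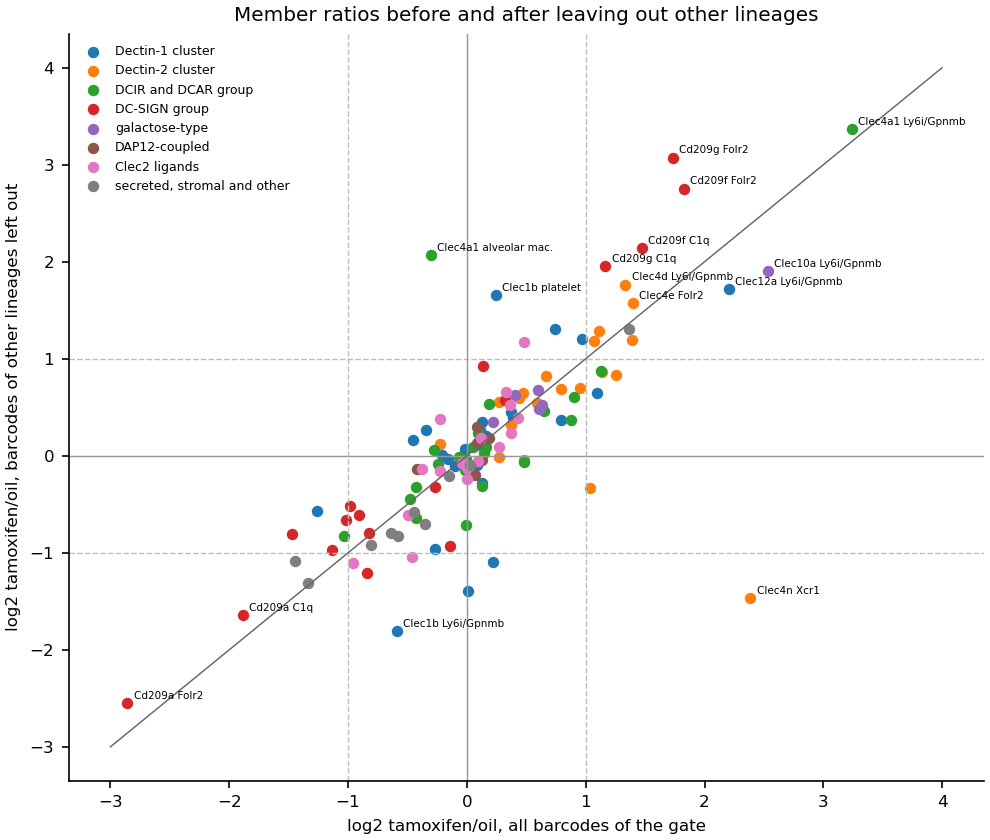
Each of 126 points is a pair of a member and a gate with at least 30 UMIs in both readings, with the log2 ratio of tamoxifen over oil in the whole gate on the horizontal axis and with other lineages left out on the vertical axis, and colour marks the role. Cd209f and Cd209g lie high on both axes, Cd209a low on both, and Clec4n in the Xcr1 gate lies at 2.39 and -1.46.

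The cluster named after Dectin-1 supplied Clec9a, Clec12a, Clec1a and Clec1b. Clec7a, the gene of Dectin-1 itself, was not among the 37 members found by symbol, so its level is not known here. Clec9a (DNGR-1), which binds actin filaments exposed by dead cells, led in the Xcr1 gate at 137 CPM with tamoxifen and 154 CPM with oil (-0.16, -0.27 to -0.05), and 75.2% and 80.2% of barcodes of the gate held a UMI. Clec12a, an inhibitory receptor for uric acid crystals, stood at 185 and 187 CPM in the same gate (-0.02). In dendritic cells of this gate neither gene was 2-fold apart, and without other lineages the ratios were -0.03 and 0.07. Clec12a was similarly abundant in the C1q gate (181 and 161 CPM, 0.16), the Folr2 gate (164 and 152 CPM, 0.11) and the Mgl2 gate (149 and 140 CPM, 0.09), and lower in the Ccr7/Fscn1 gate (45.3 and 48.6 CPM, -0.10). In the alveolar macrophage gate Clec9a was at 23.7 and 56.8 CPM (-1.26, -1.45 to -1.07). There 7.78% of tamoxifen and 20.2% of oil barcodes also passed the Xcr1 gate, and without other lineages Clec9a was at 7.68 and 11.4 CPM (-0.57). In the neutrophil gate it had 32 and 20 UMIs (-1.26), and 0 in both libraries without other lineages.

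Clec12a was higher in the Ly6i/Gpnmb gate, at 101 CPM with tamoxifen and 21.9 CPM with oil (2.21, 1.77 to 2.68), and at 162 and 49.4 CPM over the 145 and 27 barcodes without other lineages (1.72). This gate held few Ly6i or Chil1 UMIs in oil. Clec12a had 57 and 7 UMIs in the platelet gate (1.45), and 5 and 3 without other lineages.

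Clec1b (CLEC-2), the platelet receptor for podoplanin, led in the platelet gate at 587 CPM with tamoxifen and 496 CPM with oil (0.24, -0.10 to 0.60). Without other lineages 61 and 41 barcodes gave 2075 and 657 CPM (1.66), while 6 platelet markers gave 13494 and 5140 CPM in the same barcodes. Whether the platelet barcodes were as pure in both libraries was not tested. Clec1b was also found in the alveolar macrophage gate, at 47.9 and 36.7 CPM (0.39). It was at least 2-fold higher in the C1q gate (7.72 and 3.62 CPM, 1.09), the Mgl2 gate (10.8 and 5.07 CPM, 1.09) and the Folr2 gate (39 and 7 UMIs, 2.66), and without other lineages it had 35 and 23 UMIs in the C1q gate (0.65), 10 and 8 in the Mgl2 gate and 2 and 5 in the Folr2 gate. Clec1b and Clec9a overlap on the same strand, and 11.2% of the 60-base stretches near the 3′ ends of Clec1b transcripts occur in Clec9a, so counts of the pair are uncertain. Clec1a, a receptor of fungal melanin, led among the 10 gates in the platelet gate (74.1 and 71.6 CPM) and stood higher in endothelial barcodes (311 and 288 CPM). It was at 22.6 and 8.95 CPM in the neutrophil gate (1.34, 68 and 7 UMIs), and had 2 and 0 UMIs there without other lineages.

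Clec10a (MGL1), which binds galactose and N-acetylgalactosamine, led in the Folr2 gate at 106 CPM with tamoxifen and 70.0 CPM with oil (0.60, 0.34 to 0.87). It was at 45.3 and 29.2 CPM in the C1q gate (0.63) and 64.9 and 48.9 CPM in the Mgl2 gate (0.41), and without other lineages the ratios were 0.68, 0.52 and 0.63. Its ratio was above 0 in 7 of 8 gates measured, with 1 pair past 2-fold, the Ly6i/Gpnmb gate (88 and 4 UMIs, 2.53, and 61 and 3 UMIs without other lineages). The alveolar macrophage gate went the other way (7.26 and 13.6 CPM, -0.91). Some 10.7% of its 3′ stretches are shared with Mgl2, the gene that set the Mgl2 gate. Clec5a (MDL-1), which signals through the adaptor of Tyrobp, led in the neutrophil gate at 57.3 and 76.7 CPM (-0.42) and was past 2-fold in none of its 7 gates.

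Clec2 proteins are ligands of NKR-P1 receptors on natural killer cells. Clec2d, the ligand of the inhibitory receptor of Klrb1b, was measured in all 10 gates and led in the Ccr7/Fscn1 gate at 342 CPM with tamoxifen and 400 CPM with oil (-0.23, -0.36 to -0.09). It was also one of the most abundant members elsewhere, at 147 and 114 CPM in the alveolar macrophage gate, 186 and 191 CPM in the C1q gate, 204 and 188 CPM in the Folr2 gate and 162 and 162 CPM in the Mgl2 gate. It stood at 124 and 88.6 CPM in the Ly6i/Gpnmb gate, 112 and 104 CPM in the Xcr1 gate, 108 and 80.5 CPM in the B cell gate and 133 and 259 CPM in the platelet gate. The log2 ratio of Clec2d lay between -0.96 (platelet gate) and 0.48 (Ly6i/Gpnmb gate), so no gate was 2-fold apart, although without other lineages small counts gave 1.17 in the Ly6i/Gpnmb gate (207 and 17 UMIs) and -1.11 in the platelet gate (14 and 35 UMIs). Clec2i led in the Ccr7/Fscn1 gate at 21.6 and 21.6 CPM (0.00) and was at 14.9 and 12.3 CPM in the B cell gate (0.27). Clec2g led in the B cell gate at 9.39 and 7.32 CPM (0.36). Clec2g in the C1q gate had 26 and 11 UMIs (1.06), and 8 and 9 without other lineages.

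The remaining members are secreted, stromal or intracellular. Clec14a and Clec3b were mainly in the few non-immune barcodes of the sort. Clec14a, an endothelial protein, was at 447 CPM with tamoxifen and 451 CPM with oil in endothelial barcodes (-0.01), and Clec3b (tetranectin) at 256 and 312 CPM in fibroblast barcodes (-0.29). In immune gates Clec14a had 24 and 18 UMIs in the alveolar macrophage gate (-1.72), 36 and 9 in the Xcr1 gate (1.75) and 51 and 24 in the Mgl2 gate (1.36), and Clec3b had 22 and 53 in the C1q gate (-1.45) and 16 and 34 in the Xcr1 gate (-1.34). Without other lineages the Clec14a counts were 11 and 7, 12 and 8, and 17 and 15 UMIs, and those of Clec3b 21 and 46 (-1.09) and 10 and 25 (-1.31). Over these 5 pairs and both libraries, UMIs per barcode were 0.254 to 4.31 times those in T cells outside the gates. Clec11a, a secreted growth factor, stood at 57.5 and 62.9 CPM in fibroblast barcodes. Among the 10 gates Clec14a led in the platelet gate (45 UMIs with tamoxifen and 15 with oil). Clec3b (68 and 123 UMIs) and Clec11a (25 and 27 UMIs) led in the Mgl2 gate. Clec16a, an intracellular protein of autophagy, led in the alveolar macrophage gate at 33.1 and 42.3 CPM (-0.35). Its ratio was below 0 in 8 of 9 measured gates, past 2-fold in the Ly6i/Gpnmb gate (21.1 and 48.3 CPM, -1.20) and the Ccr7/Fscn1 gate (10 and 25 UMIs, -1.46), where 14 and 10, and 5 and 15 UMIs, were left without other lineages. It stayed below 0 without other lineages in the alveolar macrophage (-0.70), C1q (-0.80), Xcr1 (-0.92) and Mgl2 (-0.58) gates.

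Over 152 measured pairs of a signalling gene and a gate, 1 (0.658%) was at least 2-fold higher and 3 (1.97%) lower, against 4.29% and 2.06% over all genes. Of 16 signalling genes, among them Syk, Card9, Bcl10, Malt1, Fcer1g, Tyrobp and Ptpn6, 0 were so in the C1q, Folr2, Ly6i/Gpnmb, Xcr1, Mgl2, Ccr7/Fscn1 and B cell gates. Nfatc2, a transcription factor, was lower in the alveolar macrophage gate (7.55 and 16.6 CPM, -1.14) and the neutrophil gate (-1.23), Src was lower in the neutrophil gate (-1.24), and Malt1 was higher in the platelet gate (56 and 9 UMIs, 1.06). Of 59 pairs of the 10 ligands and partner receptors, 4 (6.78%) were higher and 2 (3.39%) lower. Pdpn, the podoplanin ligand of Clec1b, was higher in the C1q gate (5.94 and 2.27 CPM, 1.39, and 1.47 without other lineages) and the Ly6i/Gpnmb gate (38 and 2 UMIs, 2.32, 0.37 to 5.42). Klrb1b was lower in the alveolar macrophage gate (45.0 and 98.0 CPM, -1.12) and higher in the Ly6i/Gpnmb gate (27.8 and 4.48 CPM, 2.63). Anxa1 was higher in the neutrophil gate (1.16), and Klrb1c lower in the Mgl2 gate (19 and 47 UMIs, -1.03).

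Of 96 measured pairs of 12 C-type lectins of other names, 18 (18.8%) were at least 2-fold higher and 5 (5.21%) lower. Shares over all genes were 4.29% and 2.06%. Olr1 (LOX-1, a receptor of oxidised lipoprotein) was at least 2-fold higher in 7 gates. It stood at 33.2 CPM with tamoxifen and 7.74 CPM with oil in the C1q gate (2.10), 46.3 and 5.36 CPM in the Folr2 gate (3.11), 22.0 and 1.08 CPM in the Xcr1 gate (4.34) and 32.9 and 9.54 CPM in the Mgl2 gate (1.79). The Ccr7/Fscn1 and B cell gates gave 2.04 and 2.76, and the platelet gate had 34 UMIs with tamoxifen and 0 with oil. Without other lineages Olr1 was at 17.6 and 6.24 CPM in the C1q gate (1.49), and had 11 and 11 UMIs in the Folr2, 11 and 5 in the Xcr1, 28 and 40 in the Mgl2 (0.61), 3 and 5 in the Ccr7/Fscn1, 5 and 1 in the B cell and 0 and 0 in the platelet gate. The mannose receptor Mrc1 was higher in the Xcr1 (1.57), Ccr7/Fscn1 (1.33), B cell (2.97) and platelet (1.92) gates. Without other lineages Mrc1 had 21 and 41 UMIs (-0.95), 22 and 28 (-0.15), 30 and 8 (1.43) and 3 and 3 in these gates. Alveolar macrophage markers were higher with tamoxifen there. They were also higher in the C1q (668 and 214 CPM), Folr2 (952 and 244), Mgl2 (973 and 405) and neutrophil (5388 and 2071) gates, where Mrc1 was not 2-fold apart. Olr1 and Mrc1 stood at 454 and 347 CPM and at 1049 and 1046 CPM in alveolar macrophage barcodes without other lineages. Langerin, Cd207, was lower in the alveolar macrophage gate (86.3 and 218 CPM, -1.34) and the B cell gate (-2.82) and higher in the Ly6i/Gpnmb gate (65 UMIs and 1 UMI). Without other lineages its counts in these gates were 48 and 25 (-2.16), 0 and 1, and 7 and 0 UMIs. Mgl2 was lower in the alveolar macrophage gate (101 and 330 CPM, -1.71) and the neutrophil gate (-2.30). Further pairs past 2-fold were Cd93 in the Ccr7/Fscn1 (1.76), B cell (1.08) and neutrophil (-1.38) gates, Ly75 in the neutrophil gate (1.44), Thbd in the B cell gate (1.82) and Cd302 in the platelet gate (1.31).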

How the data were processed

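Single-cell libraries were made from sorted lung leukocytes with 10x 3′ v3 chemistry per the labels' protocols, and reads were processed with Cell Ranger 5.0.1 on GRCm38/mm10 per the submitters' processing notes. Which gene annotation those counts used is not stated there or in the labels. The authors deposited raw UMI counts per gene and barcode, with 1 library per group. Since the tags come from 3′ ends, CPM is not scaled by gene length and levels are best compared within a gene.

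Barcodes with at least 300 genes and under 10% mitochondrial UMIs were kept. UMIs were summed per gate and library and scaled by the gate total (CPM). A member with at least 30 UMIs over both libraries was taken as measured in a gate. Calls were ratios of at least 2-fold, with exact 95% Poisson or Clopper-Pearson intervals that cover counting error, and a floor of 3 counts for a count of 0. Cells were called female or male from sex-linked transcripts. Shares of barcodes were compared after thinning to 1500 UMIs, leaving out shallower barcodes. Doublets were not removed in the values given: Scrublet in Scanpy 1.11.5 marked 416 of 10138 tamoxifen barcodes (4.10%) but 4 of 6794 oil barcodes (0.0589%), so its automatic cut had not worked for oil, and an alternative left out the top-scoring 8.11% of tamoxifen and 5.43% of oil barcodes.

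Positions came from GENCODE M21 on GRCm38 and start-site sequences from RefSeq on GRCm38.p6, where 31 of 37 members matched. Clec1a, Clec3a, Clec3b, Clec4a4, Clec4n and Clec10a had no entry. Members, gene lists and alternatives were chosen with earlier results of these data known. Named with values were each measured member in its leading gate, the 3 members of highest CPM in each gate, and each pair past 2-fold. The calculations used Python 3.11.15, numpy 2.4.6, pandas 2.3.3 and SciPy 1.17.1 and were tested on simulated counts.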

Additional observations from a re-analysis of the deposited data

Results flagged for a closer look

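Of the pairs past 2-fold, 5 had ratios of opposite sign in female and male cells with at least 30 UMIs in each sex and counting intervals that left out 0 in both. Other pairs changed sign between the sexes on fewer UMIs or with an interval that held 0. Each sex is 1 set of cells per library, so these differences were not tested. Clec4n in the Ccr7/Fscn1 gate had a log2 ratio of tamoxifen over oil of 0.91 in female and -1.90 in male cells. Cd209f in the C1q gate had -1.165 in female and 2.185 in male cells. For Cd209g the values were -1.94 and 2.21 in the C1q gate, -1.43 and 2.67 in the Folr2 gate, and -1.47 and 2.39 in the Mgl2 gate. The Cd209f and Cd209g values of these 3 gates rest largely on the same few barcodes.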

How the results depend on the processing

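Of 39 higher and 20 lower pairs, 14 of 59 stayed past 2-fold in every alternative that gave a value. The number of higher pairs was 23 with at least 100 UMIs, 14 in barcodes of 1 lineage, 18 with other lineages left out but Mgl2 allowed (chosen after seeing the data), 15 after thinning and 22 in male cells. Lower pairs numbered 8, 8, 11, 4 and 5 in the same order, and 13 with the gate thresholds doubled. Shares over all genes are not given for these settings, so the counts have no base rate beside them. In barcodes of 1 lineage, directions reversed for Clec4a1 in the neutrophil gate (0.78), Clec4b1 in the Folr2 gate (2.66), Clec4n in the Ccr7/Fscn1 gate (-0.34), Clec2g in the C1q gate (-0.72) and Clec1b in the C1q gate (-0.014). With other lineages left out they reversed for Clec4n in the Xcr1 gate (-1.46) and the Ccr7/Fscn1 gate (-0.34) and Clec2g in the C1q gate (-0.12). Doubled thresholds reversed Clec4a1 in the neutrophil gate (1.19) and Clec3b in the Xcr1 gate (0.026), and removing doublets reversed Clec14a in the Xcr1 gate (-1.17). In female cells reversals were seen for Clec9a in the neutrophil gate (1.23), Cd209b in the alveolar macrophage gate (0.76), Clec14a in the Xcr1 gate (-1.245), Cd209f in the C1q (-1.165), Folr2 (-0.92) and Mgl2 (-1.46) gates and Cd209g in the same gates (-1.94, -1.43 and -1.47). In male cells they were seen for Clec4n in the Ccr7/Fscn1 gate (-1.90), Clec9a (0.21) and Cd209d (2.22) in the alveolar macrophage gate, Clec3b in the C1q gate (0.88) and Clec16a in the Ly6i/Gpnmb gate (0.26). The cause was not tested. No paired analysis was possible because each group is 1 library. Depth limits scarce members, as counts under 30 UMIs were not compared.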
